A study of Drosophila melanogaster with 14 samples.

Results

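CP190 is a zinc-finger and BTB-domain protein that sits on insulators and on many promoters of the Drosophila genome. It is brought to DNA by partner proteins, among them dCTCF, Su(Hw), BEAF-32, Pita, ZIPIC and the Ibf pair, and many of its sites carry a partner other than dCTCF. The peaks described here are autosomal CP190 peaks of wild-type flies that were found again in flies with a deletion in dCTCF and that overlapped no called dCTCF or HA peak in either genotype. They numbered 1537 of 2035 autosomal CP190 peaks in the wild-type list, a share of 75.5% (95% Wilson interval 73.6 to 77.3), of 2517 wild-type CP190 peaks on all chromosomes, and of 8279 peaks in the 6 deposited lists together. They are called dCTCF-independent CP190 peaks below, a name that stands for the rule and for no test of dependence.

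Chromatin immunoprecipitation followed by sequencing (ChIP-seq) was done on whole adults of 2 lines, dCTCFdelta705-733, with the internal deletion in dCTCF that its name gives, and dCTCFwt, which carries wild-type dCTCF. Both lines are labelled Oregon-R, and the growth protocol, which is the same for every library, names wild-type Oregon R flies aged 2 to 3 days. Each line was precipitated with antibodies to CP190, dCTCF and the HA epitope tag, with 2 libraries per antibody and line, and 1 mouse and 1 rat preimmune library from wild-type flies served as controls. The labels do not name the HA-tagged protein, and they do not say whether the 2 libraries of a group came from separate collections of flies. The deposited lists hold 1 set of peaks per antibody and line, made from both libraries and cut at a limit of the irreproducible discovery rate (IDR), a score of rank agreement between 2 sets of calls. No statistical test between genotypes can be made on 1 list each, and no read depth is given. Whole flies pool many cell types, so that binding in fewer cells and weaker binding in each cell cannot be told apart.

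The peaks were chosen by their presence in the 6 lists, with an overlap of at least 1 bp. Of the 2035 autosomal wild-type CP190 peaks, 1901 (93.4%) overlapped a CP190 peak of the deletion line, and 1604 (78.8%) overlapped no HA or dCTCF peak of either line. Peaks that met both conditions are the 1537, and these shares were fixed by the rule. The remaining autosomal peaks were 364 shared peaks with an HA or dCTCF peak, 67 peaks without HA or dCTCF that were absent from the deletion list, and 67 peaks with HA or dCTCF that were absent from it. A further 366 peaks on the X chromosome met the same conditions as the 1537. The 1537 peaks fell on 1529 different deletion peaks, and 16 of them shared a deletion peak with a neighbour.

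CP190 enrichment at these peaks spanned a wide range in both lines. Fold enrichment over the preimmune library, a value the authors' peak caller gave, had a median of 10.4 in the deletion line (95% interval of the median 9.70 to 11.02) and 6.76 in wild type (6.40 to 7.21). The lowest and highest values were 2.50 and 127.7 in the deletion line, and 2.29 and 93.5 in wild type. The X-linked peaks chosen in the same way had medians of 11.3 in the deletion line and 6.81 in wild type. At the 364 shared autosomal peaks with HA or dCTCF the medians were 12.5 in the deletion line and 12.8 in wild type. The higher deletion values at peaks without dCTCF were thus seen on autosomes and X alike, while the medians at peaks with dCTCF had overlapping intervals (10.0 to 15.3 in the deletion line and 11.5 to 15.3 in wild type). A fold value also carries the signal and background of its own libraries, and the part of these in the difference was not tested.

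**Figure D1:**
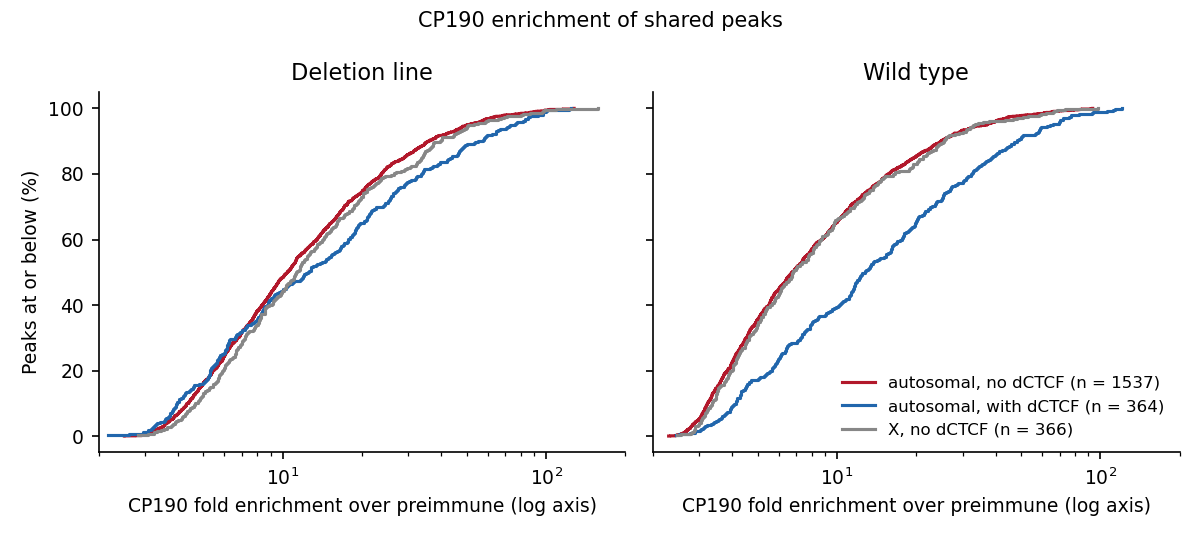
Cumulative share of peaks (%) by CP190 fold enrichment over preimmune (log axis) in the deletion line (left) and wild type (right), for 1537 autosomal peaks without dCTCF, 364 autosomal peaks with HA or dCTCF and 366 X peaks without dCTCF. The wild-type curve of the peaks with dCTCF lies to the right, with a median of 12.8 against 6.76 at the autosomal peaks without it, and the deletion curves lie closer together.

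Within the wild-type list the dCTCF-independent peaks were under-represented at the top. The strongest 10% of the list held 7.22% of them (6.03 to 8.63), 7.65% of the X peaks without dCTCF (5.35 to 10.8) and 22.8% of the shared autosomal peaks with HA or dCTCF (18.8 to 27.4). None of the 10 strongest wild-type CP190 peaks, of which 7 were autosomal, met the rule. In the deletion list 5 of the 10 strongest peaks and 43 of the 100 strongest lay at dCTCF-independent peaks, against 35 of the 100 strongest in the wild-type list. Over the whole lists they lay on 1529 of 3164 deletion peaks and made up 1537 of 2517 wild-type peaks. The 2 counts among the 100 strongest therefore have unlike backgrounds. In wild type the peaks were also narrower than those with HA or dCTCF, with a median width of 815 bp (783 to 847) against 1049 bp (984 to 1131). The X peaks without dCTCF had 790 bp (757 to 824), and all autosomal wild-type CP190 peaks 827 bp (799 to 857). Both intervals overlap that of the dCTCF-independent peaks. In the deletion line the medians were 923 bp (892 to 952) at dCTCF-independent peaks and 1010.5 bp (914 to 1069) at those with HA or dCTCF, with overlapping intervals.

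The strongest dCTCF-independent peak of the wild-type list lay on 3R at 10674893 to 10678147. It covered the gene CG6465 and reached Phyhd1, and had a fold enrichment of 98.7 in the deletion line and 93.5 in wild type. The peak ranked next lay inside Wdr62, which codes for a centrosome and spindle protein, on 2L at 1908794 to 1910990. Its fold enrichment was 127.7 in the deletion line, where it held place 4 of 3164, and 92.3 in wild type, where it held place 14 of 2517. Its −log10 p was 4294 and 4088 in the 2 sets of calls of the deletion line and 3087 and 3048 in those of wild type, so that the values of the lines did not overlap. Over all dCTCF-independent peaks the median −log10 p of the first set of calls was also higher in the deletion line, 157 against 83.3 in wild type. A higher deletion value is thus no mark of a single site, and the part of read depth in it was not tested. A further peak on 3R, at 22093263 to 22094982 in the space between BomBc3, a Bomanin immune peptide gene, and CG13407, had a fold of 126.5 in the deletion line and 91.8 in wild type. Its −log10 p was 4245 and 4177 in the deletion line and 3065 and 2843 in wild type.

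Other peaks among the 10 strongest lay at genes of varied function. One stood within nuf, which codes for an adaptor of recycling endosomes, on 3L at 14210974 to 14213776, with a fold of 91.0 in the deletion line and 85.1 in wild type. At this peak the −log10 p values of the lines overlapped, being 2797 and 2743 in the deletion line and 2784 and 2847 in wild type. The space between sfl, which codes for a heparan sulfate sulfotransferase, and MCU, the mitochondrial calcium uniporter gene, held a peak on 3L at 6549267 to 6551615 with a fold of 102.0 in the deletion line and 83.5 in wild type. A peak on 2L at 539610 to 542754 covered lwr, which codes for the SUMO-conjugating enzyme, and part of ush, a GATA cofactor gene, with a fold of 92.9 in the deletion line and 81.9 in wild type. Between SppL and Lnk, an adaptor gene of insulin signalling, a peak on 3R at 25887775 to 25889182 had a fold of 102.9 in the deletion line and 79.3 in wild type. The other 3 lay between CG33453 and lncRNA:CR44432, at CG6966 and CG42788, and between CG4744 and BaraA2. Only 3 of the 10 had their summit within 200 bp of an end of a protein-coding gene.

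**Figure D2:**
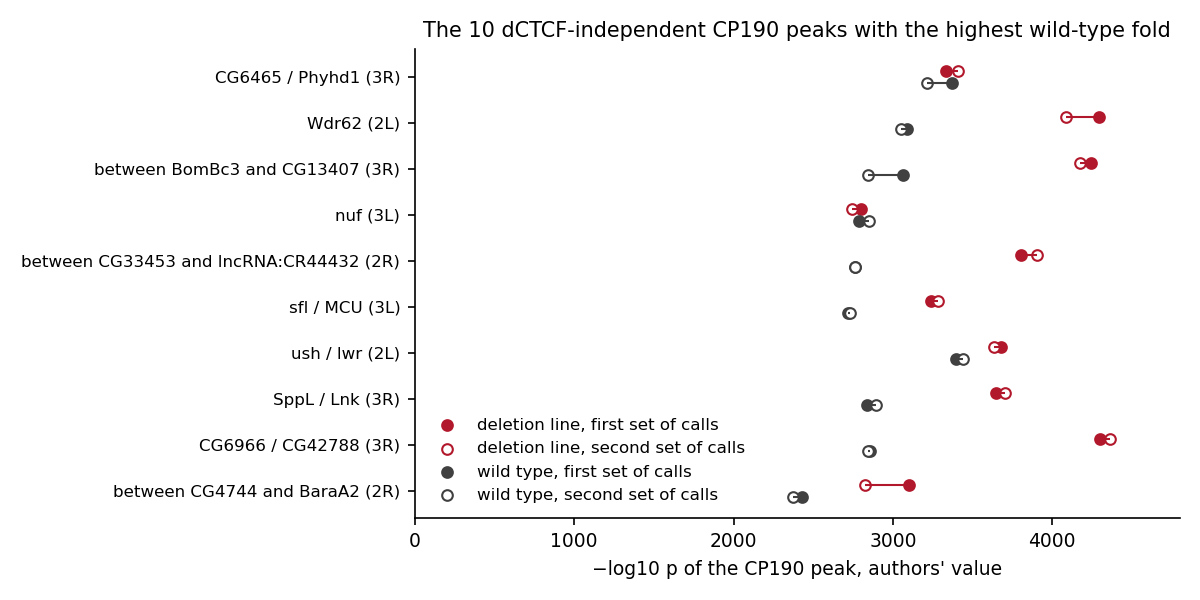
The authors' −log10 p of the CP190 peak (x axis) at the 10 dCTCF-independent peaks with the highest wild-type fold, labelled by gene and chromosome arm, for the first (filled) and second (open) set of calls of the deletion line (red) and wild type (grey). The deletion values lie above the wild-type values at most peaks and overlap them at the peak within nuf and at that over CG6465 and Phyhd1. The median of the first set over all 1537 peaks was also higher in the deletion line, 157 against 83.3.

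Ranked by deletion fold, the 10 strongest included 2 further peaks. A peak on 2L at 14010154 to 14012413 covered the gene tRNA:Gln-CTG-4-1 near bgm, an acyl-CoA synthetase gene, and had a fold of 124.7 in the deletion line, place 6, against 61.4 in wild type, place 59. A peak on 3R at 27149698 to 27152405 lay between CG6051 and Men-b, a malic enzyme gene, with a fold of 102.5 in the deletion line and 72.4 in wild type. On the small chromosome 4 the strongest peak reached sv, a Pax-family gene, and Cals, the calsyntenin gene, at 1112374 to 1114698, with a fold of 45.8 in the deletion line and 31.3 in wild type.

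Places within the 1901 shared autosomal peaks allow the lines to be set side by side without the scale of either list. Ordered by fold, the dCTCF-independent peaks had a median place of 966 in the deletion line and 1030 in wild type, and 1004 of them stood at a better place in the deletion line against 526 at a worse one. That is 65.3% at a better place (62.9 to 67.7). Of the 364 peaks with HA or dCTCF, 105 stood at a better place in the deletion line and 257 at a worse one, or 28.8% at a better place (24.4 to 33.7). The 475 strongest places held 358 dCTCF-independent peaks in the deletion line (23.3%) and 313 in wild type (20.4%), and 120 peaks with HA or dCTCF in the deletion line (33.0%) and 162 in wild type (44.5%). Ties, which arise where peaks share a deletion peak or where separate peaks have equal folds, were all kept. Places are a closed sum, so a gain of one class is a loss of the other, and these values do not say which of them moved.

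The 2 sets of calls in each list gave a measure of spread. At the dCTCF-independent peaks the larger −log10 p of a pair exceeded the smaller by a median factor of 1.08 in the deletion line and 1.09 in wild type. When places were taken from each set of calls, both deletion places were better than both wild-type places at 789 of the 1537 peaks (51.3%, 48.8 to 53.8), both were worse at 361 (23.5%, 21.4 to 25.7), and they overlapped at 387. At the 364 peaks with HA or dCTCF both deletion places were better at 77 (21.2%, 17.3 to 25.6) and worse at 229 (62.9%, 57.8 to 67.7). The lists do not say whether the sets of calls are the 2 libraries, so that this spread may be smaller than that between flies.

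**Figure D3:**
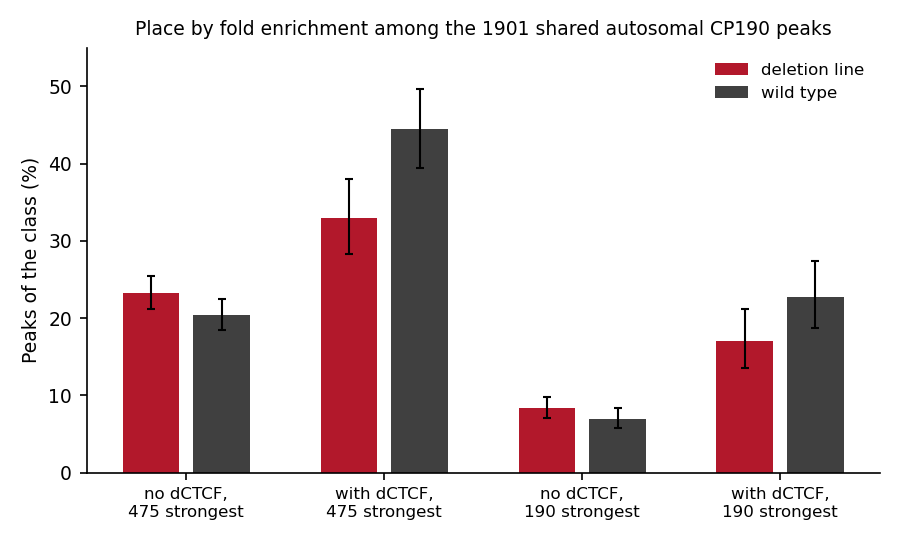
Share of each class (%) among the 475 and the 190 strongest places of the 1901 shared autosomal CP190 peaks, by place in the deletion line (red) and wild type (grey), with 95% Wilson intervals that cover counting error only. Peaks without dCTCF held more of the 475 strongest places in the deletion line (23.3%) than in wild type (20.4%), and peaks with dCTCF held less (33.0% against 44.5%).

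CP190 summits lay at nearly the same base in both lines. The distance between the deletion and wild-type summits had a median of 12 bp (12 to 13), and 1373 of the 1537 summits (89.3%, 87.7 to 90.8) were within 50 bp of each other. Within a list, the summits of the 2 sets of calls were a median of 11 bp apart in the deletion line and 13 bp in wild type, and 93.6% of the deletion pairs and 92.0% of the wild-type pairs lay within 50 bp. The shift between lines was therefore close to the spread within each list. At shared peaks with HA or dCTCF the shift between lines had a median of 14 bp, and 89.3% lay within 50 bp.

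Many of the peaks lay at ends of genes. The summit was within 200 bp of an end of a protein-coding gene, taken without strand, at 735 of the 1537 dCTCF-independent peaks (47.8%, 45.3 to 50.3). Over all autosomal wild-type CP190 peaks this share was 46.9%, so the dCTCF-independent peaks did not stand apart from the list. The share was 43.7% (38.7 to 48.8) at shared peaks with HA or dCTCF and 51.1% (46.0 to 56.2) at the X peaks. Summits inside a protein-coding gene made up 38.7% (36.3 to 41.2), against 31.9% (27.3 to 36.8) at peaks with HA or dCTCF, with intervals that overlap. This share was 38.0% over all autosomal wild-type CP190 peaks. Ends of 2 or more genes lay within 200 bp at 192 dCTCF-independent peaks (12.5%, 10.9 to 14.2) and at 30 peaks with HA or dCTCF (8.24%, 5.83 to 11.5), again with overlapping intervals. All autosomal wild-type CP190 peaks gave 11.9%, close to the dCTCF-independent share. Counting genes of every kind, 726 of the 758 nearest ends within 200 bp belonged to protein-coding genes, 11 to long noncoding RNA genes and 8 to tRNA genes.

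Enrichment differed with position. The 355 dCTCF-independent peaks whose summits lay more than 200 and up to 1000 bp from a gene end had the highest median fold, 14.5 in the deletion line (12.4 to 16.3) and 9.21 in wild type (8.20 to 10.5). The 735 peaks within 200 bp of an end had medians of 8.97 in the deletion line (8.26 to 9.72) and 5.76 in wild type (5.49 to 6.42). Peaks inside genes and farther than 1000 bp from an end, 269 in number, had medians of 9.68 in the deletion line (8.51 to 12.2) and 6.41 in wild type (5.75 to 7.86), which overlap those at gene ends. The 178 between genes had 10.6 in the deletion line (9.34 to 12.1) and 6.75 in wild type (6.05 to 8.29). In the same direction, 40 of the 111 peaks in the strongest 10% of the wild-type list (36.0%, 27.7 to 45.3) and 102 of the 150 in its weakest 10% (68.0%, 60.2 to 74.9) lay within 200 bp of a gene end. Peaks without dCTCF recurred in the deletion line at 99.1% in the strongest 10% of the wild-type list, at 100% in the next 10% and at 78.9% in the weakest.

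**Figure D4:**
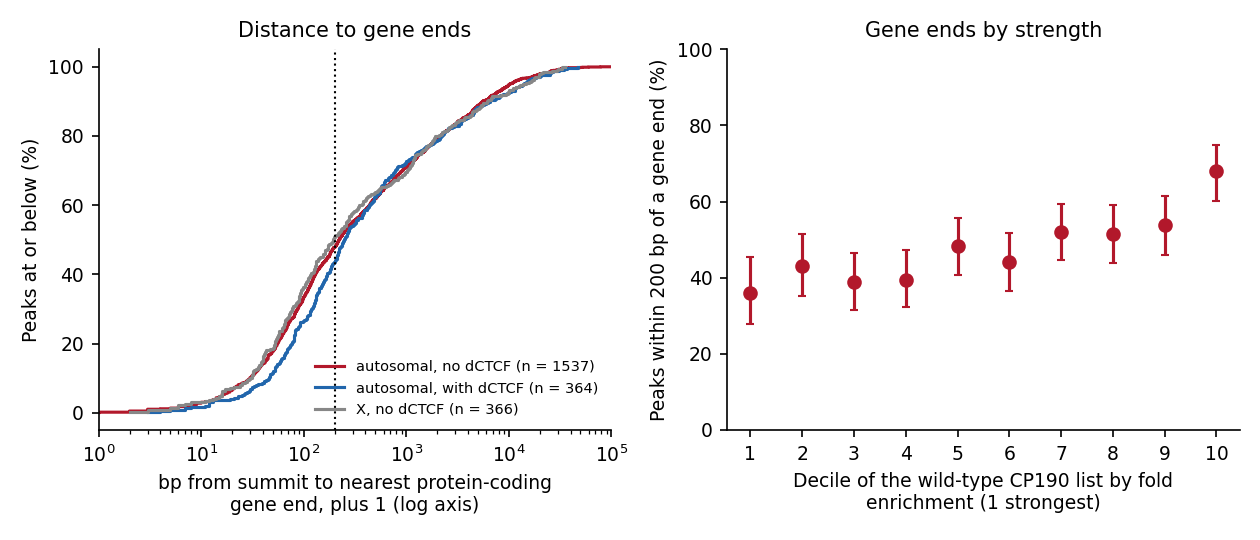
Left, cumulative share of peaks (%) by distance in bp from the CP190 summit to the nearest end of a protein-coding gene, plus 1, on a log axis, with a dotted line at 200 bp. Right, share of dCTCF-independent peaks (%) within 200 bp of a gene end by decile of the wild-type list, with 95% Wilson intervals. The curves of the 3 classes lie close together, and the share is 36.0% in the strongest decile and 68.0% in the weakest.

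Genes with a dCTCF-independent peak on them, or a summit within 1000 bp, numbered 2061 of 11719 autosomal protein-coding genes (17.6%), and 912 genes (7.78%) had a summit within 200 bp of an end. Most had a single such peak, 176 had 2, and 4 genes had 4. Those 4 were CG42784, Pde1c, which codes for a phosphodiesterase, heph, an RNA-binding protein gene, and toc, all of them long genes and picked out after their values were seen.

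Ribosomal protein genes carried these peaks most often of the gene groups examined with more than 3 genes. Of 78 autosomal genes, 34 had a dCTCF-independent peak (43.6%, 33.1 to 54.6), against 17.6% of all autosomal protein-coding genes, and 25 (32.1%) had a summit within 200 bp of an end, against 7.78%. No test of the group was made. Their 36 peaks had a median fold of 9.41 in the deletion line and 6.16 in wild type, with ranges of 4.04 to 59.1 in the deletion line and 2.64 to 44.0 in wild type. The medians were close to those of all dCTCF-independent peaks, of which these are a part. The strongest in wild type lay next to RpS27, a small-subunit protein gene, on 3R at 25244757 to 25246663, with a fold of 58.7 in the deletion line and 44.0 in wild type. RpL3, a large-subunit protein gene on 3R, had the strongest in the deletion line, at 11221251 to 11222348, with a fold of 59.1 in the deletion line and 37.6 in wild type. RpL23A and RpL23 had 37.1 and 30.1 in the deletion line against 20.2 and 20.0 in wild type. A second RpS27 peak, at 25247123 to 25247717, was weak in both lines, with 4.58 in the deletion line and 3.26 in wild type. Peaks shared between the lines that did carry HA or dCTCF lay at 7 of the 78 genes (8.97%), against 4.25% of all autosomal protein-coding genes. Any wild-type CP190 peak lay at 43 of the 78, against 2604 of all 11719, and these counts include the genes with a dCTCF-independent peak. The share was thus higher than over all genes in both classes, but that with HA or dCTCF rests on 7 genes and has no interval.

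Genes of insulator proteins and of CP190 partners had a dCTCF-independent peak at 7 of 21 (33.3%, 17.2 to 54.6). This interval holds the 17.6% of all autosomal protein-coding genes. The 7 genes had 6 different peaks. The strongest lay within su(Hw), the gene of another zinc-finger insulator protein, on 3R at 14307643 to 14309179, with a fold of 43.4 in the deletion line and 27.8 in wild type. Its −log10 p was 1524 and 1536 in the deletion line and 897.6 and 870.0 in wild type, with no overlap between the lines. The medians of all dCTCF-independent peaks differed in the same direction, at 157 and 83.3 in the first set of calls. A peak within mod(mdg4), whose products include a BTB partner of Su(Hw), had a fold of 9.40 in the deletion line and 5.80 in wild type. Ibf1 and Ibf2, neighbouring genes of DNA-binding proteins that act with CP190, shared 1 peak, with 4.57 in the deletion line and 4.94 in wild type. Chro, the chromator gene, had 7.80 in the deletion line and 4.22 in wild type. The summit of this peak lay 123 bp outside Chro and 18 bp from an end of another protein-coding gene. A weak peak counted for Trl, the gene of the GAGA factor, had 4.44 in the deletion line and 3.82 in wild type. Its summit lay 931 bp outside Trl and 48 bp from an end of another protein-coding gene. The peak at pita was also weak, with 4.33 in the deletion line and 2.59 in wild type.

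Among homeotic genes, where dCTCF is best known, 2 carried such a peak. Ubx, which specifies the third thoracic segment, had a peak on 3R at 16655435 to 16656845, with a fold of 27.6 in the deletion line and 24.5 in wild type, and was the 1 of 3 bithorax complex genes with such a peak (33.3%, 6.15 to 79.2). Antp was the 1 of 9 Antennapedia complex genes (11.1%, 1.99 to 43.5), with a peak at 6907964 to 6908620 and a fold of 22.9 in the deletion line and 22.7 in wild type. The −log10 p of the Antp peak was 510.6 and 492.7 in the deletion line and 546.0 and 506.5 in wild type, so that the lines overlapped. Both intervals hold the 17.6% of all autosomal protein-coding genes. Shared peaks with HA or dCTCF lay at 3 Antennapedia complex genes and 1 bithorax complex gene, against 498 of all 11719 autosomal protein-coding genes (4.25%).

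Heat shock protein genes had such a peak at 2 of 18 (11.1%, 3.10 to 32.8), Hsp83 and Hsp68. Cohesin and condensin genes had one at 1 of 9 (11.1%, 1.99 to 43.5), SMC1, from the same weak peak as Hsp68. Both intervals hold the share of all protein-coding genes. Chorion protein genes, taken as symbols that start with Cp and a number, had none at 5 autosomal genes. The Wilson interval allows up to 43.4%, and 4 of the 5 carried a shared CP190 peak with HA or dCTCF. This match by symbol also fits Cp190, which is not a chorion gene, so the group may hold fewer than 5 chorion genes. Autosomal tRNA genes had one at 29 of 269 (10.8%, 7.61 to 15.1), from 20 different peaks with a median fold of 17.7 in the deletion line and 12.2 in wild type. Neighbouring tRNA genes can share 1 peak, so the interval counts linked genes as separate. Any peak on a gene was counted whatever the length of the gene, so the share of protein-coding genes is no background for tRNA genes.

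**Figure D5:**
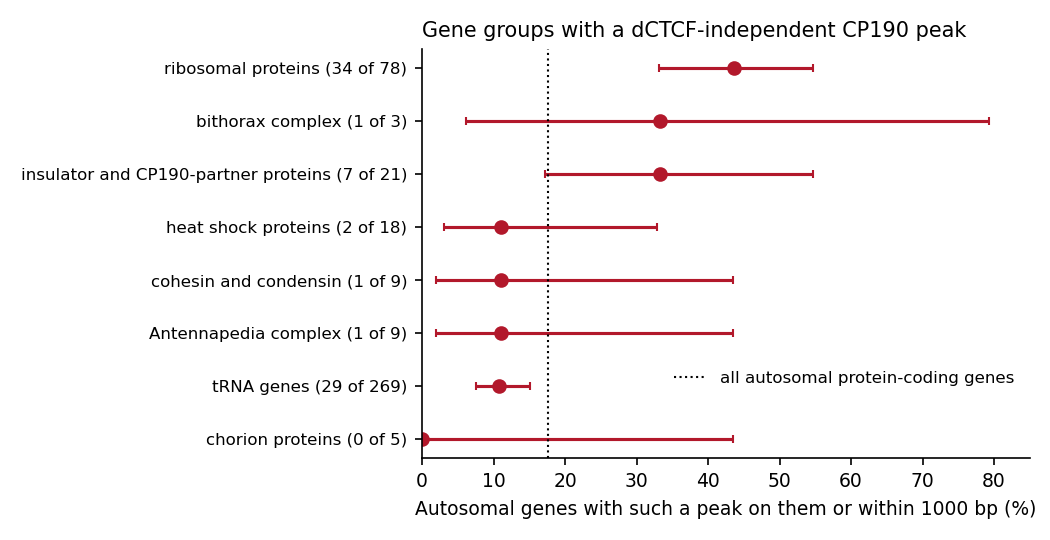
Share of autosomal genes (%) with a dCTCF-independent CP190 peak on them or a summit within 1000 bp, by gene group, with 95% Wilson intervals and a dotted line at 17.6%, the share of all autosomal protein-coding genes. Ribosomal protein genes (34 of 78) lie above the line and tRNA genes (29 of 269, from 20 peaks) below it, and the intervals of the other groups reach or cross it. The line is no background for tRNA genes, which differ from protein-coding genes in length and can share a peak. The chorion group was matched by symbol and may also hold Cp190.

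The peaks were spread evenly over the large arms. They numbered 352 on 2L, 356 on 2R, 367 on 3L, 451 on 3R and 11 on chromosome 4, or 15.0, 14.3, 13.1, 14.3 and 8.66 per Mb in that order. Chromosome 4 was the lowest per Mb, but per 100 protein-coding genes it had 13.8, against 12.5 to 13.4 on the large arms. The dCTCF-independent share of wild-type CP190 peaks was lowest on chromosome 4, at 68.8% of 16 peaks (44.4 to 85.8), and on 3L, at 71.4% (67.3 to 75.1), and was 76.6% to 77.4% on the other arms.

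From a dCTCF-independent summit to the nearest other CP190 summit of the wild-type list the median distance was 13500 bp, and 38.9% had one within 10 kb. Over all autosomal wild-type CP190 peaks the median was 13576 bp and the share 39.0%, so the dCTCF-independent peaks did not stand apart in spacing. Joining summits at most 10 kb apart left 1047 peaks alone and put 490 into 220 runs. The longest run held 6 peaks on 2L at 16841134 to 16863205, along SclA, CG31810, CG31809 and CG6012, with folds of 11.3 to 23.4 in the deletion line and 3.86 to 15.6 in wild type. Of the 7 runs of 4, the shortest lay on 2L at Hakai, CG10366 and Lar, and the next on 2R at nvy, Fatp3 and betaTub60D. The rule removed every peak that touched an HA or dCTCF peak, so a low share close to one was partly fixed by it. The nearest HA or dCTCF peak lay at a median distance of 44606 bp, and 22 of the 1537 (1.43%) had one within 1000 bp. At the X peaks chosen in the same way the median was 52194.5 bp, and 1.09% had one within 1000 bp.

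The smallest overlaps with a deletion peak were 261 bp at Prosalpha3, a proteasome subunit gene, 270 bp at mTTF and 276 bp within Sarm. Each is the whole width of the narrower peak of the pair, so that these were narrow peaks inside another and not marginal contacts. The nearest autosomal peaks without HA or dCTCF that missed a deletion peak stood 267 bp from one at CG31635, 366 bp from one near MESR6 and 430 bp from one at jumu. On the other side of the rule, HA or dCTCF peaks came within 108 bp of a peak beside CG7907, 265 bp of one at osa, a chromatin remodeller gene, and 342 bp of one near jing. Overlaps of 239 bp at pb, 240 bp at CG2121 and 247 bp at MED19 removed shared peaks. The peak at CG2121 was strong, with a fold of 82.9 in the deletion line and 77.4 in wild type.

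The 3 peaks that stood furthest higher in the deletion list each shared a wide deletion peak with a neighbour that was stronger in wild type. The largest difference was at CG9541 on 2L, at 8972924 to 8973547, with a fold of 17.1 and place 775 in the deletion line, against 2.90 and place 2395 in wild type. Its deletion summit was 7 bp from its own wild-type summit, although the deletion peak also covered the neighbour. At the peaks near betaTub60D and at CG31809 the deletion summits were 1669 and 1677 bp away, so that their deletion values were read at the neighbour's side of the joined peak. Furthest lower stood a peak over Xport-A and Xport-B on 3R, at 19913997 to 19916270, with a fold of 3.39 in the deletion line and 10.2 in wild type. Its deletion summit was 1306 bp from the wild-type summit. A peak within atos on 2R had 2.51 in the deletion line and 4.26 in wild type, and its deletion value had a global IDR just inside the limit of 0.01 at which the list ends. A peak at Indy, a citrate transporter gene, had 3.03 in the deletion line and 4.40 in wild type.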

How the data were processed

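ChIP-seq libraries of CP190, dCTCF and HA from whole adult flies (2 per antibody and line) and 1 mouse and 1 rat preimmune library were the source of 6 deposited peak lists. The submitters' processing notes name cutadapt, Bowtie2, Picard and deepTools and the builds dm6 and dm3, with no role for either. The peak caller is not given in the sources used here. Per the file headers there are no column names. The deposited lists hold 20 columns, which were read as the output of IDR. From these columns, the fold enrichment over preimmune (a ratio), the −log10 p of each of 2 sets of calls and the summit offsets are the authors' values, and the deposited score column and the other columns were read as they stand. The CP190 lists end at a global IDR of 0.01, as does the HA list of the deletion line, while the other 3 lists end at 0.05. Depth is not given, so each share has a 95% Wilson interval and each median an exact binomial interval, both for counting error between peaks only.

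Chromosome extents matched Release 6: the last 3R peak ended at base 32068772 and the last 3R gene at base 32068441. Gene positions and names came from a RefSeq table of Release 6, which has no strand, exons or sequence, so distances are to either end of a gene, and no sequence was read. Overlap meant at least 1 bp. Genes of the groups were matched by symbol. Named peaks were the 10 with the highest fold in each line, the strongest on each arm, those nearest the limits of the rule, those that differed most in rank percentile, the longest runs, and those at genes of the groups. The peaks and the gene groups were chosen with earlier results of these data known. Overlaps equalled those of bedtools 2.31.1 in 30 of 30 pairs of lists, and on simulated lists all 300 removed peaks were found lost and 0 others. Python 3.11.15, pandas 2.3.3, numpy 2.4.6 and scipy 1.17.1 were used. Alternatives were a minimum overlap of 50% of each peak, summits at most 200 bp apart, removal by HA or dCTCF peaks within 500 or 1000 bp or by the dCTCF lists alone, stricter IDR limits, the strongest 50% of each CP190 list, other distances to a gene end, ends of all genes, and the rule applied from the deletion list.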

Additional observations from a re-analysis of the deposited data

Results flagged for a closer look

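Outside the 6 chromosome arms the wild-type CP190 list held 6 peaks, all of which overlapped a deletion CP190 peak, and 3 of them overlapped no HA or dCTCF peak. They lay on unplaced scaffolds and on a Y scaffold, and were singled out because no comparison above uses those sequences. Their folds were 6.72, 4.65 and 2.48 in the deletion line against 7.13, 3.80 and 1.97 in wild type.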

How the results depend on the processing

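Across 10 results and 5 values by arm, 118 of 138 values under the alternatives stayed within their limits and 20 moved, of which 5 were values by arm. Keeping only the strongest 50% of each CP190 list moved most: 730 peaks, 41.4% within 200 bp of a gene end, median folds of 20.9 in the deletion line and 13.7 in wild type, a summit distance of 9 bp, 31590 bp to the next summit, 6.69 peaks per Mb (6.15, 7.34, 6.47, 6.89 and 3.93 on 2L, 2R, 3L, 3R and 4), and 19.2% of ribosomal protein genes beside 8.55% of all protein-coding genes. Distances of 500 bp and 1000 bp to a gene end gave 61.9% and 70.9%. Applied from the deletion list, the rule gave 10833 bp to the next summit. An IDR limit of 0.005 gave 13.4 peaks per Mb and 16.9% of genes, and an IDR limit of 0.01 on the HA and dCTCF lists gave 18.3% of genes. The strongest peaks also have high IDR values: 9 of the 10 strongest deletion peaks and 5 of the 10 strongest wild-type peaks exceeded 0.005. No paired analysis was possible because each line has 1 list per antibody. The share of dCTCF-independent peaks at a better place in the deletion line lay between 64.1% and 65.9% in all 9 alternatives. The alternatives to that share and to the shares of genes were added after seeing the data. The motif search and its other window were not run, since no sequence was read.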

Other observations

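The strongest autosomal CP190 peak with neither HA nor dCTCF that was absent from the deletion list lay on 3L at 8328349 to 8330219, within CG34462 and near the cuticle protein gene Cpr66Cb. It was chosen after its values were seen. Its wild-type fold was 100.6, place 7 of 2517, with −log10 p of 3719 and 3600 in the 2 sets of calls, and the nearest deletion CP190 peak was 10040 bp away. The next strongest of these 67 peaks, at lovit, had a wild-type fold of 9.83, and the median of the 67 was 3.01. The wild-type peak had a global IDR of 0.00519, and the 10 strongest peaks of the deletion list had values of 0.00442 to 0.00953, against a list limit of 0.01. Whether CP190 was lost at this site or the peak missed the limit of the deletion list was not tested.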
